A study of Mus musculus with 17 samples.

Results

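The genes of 9 proteins that receive or transmit Hedgehog signals were followed across 6 groups of mouse cells: Ptch1, Hhip, Gas1, Cdon, Boc, Smo, Gli1, Gli2 and Gli3. They were chosen by name, as the receptors, co-receptors and GLI transcription factors of the pathway, and make up 9 of the 49671 genes listed in each count table. All 9 were matched to 1 Ensembl gene each, and all 9 passed the filter on low counts that left 17813 genes for testing. Hedgehog ligands are secreted proteins that bind PTCH1 on the receiving cell, helped by the co-receptors GAS1, CDON and BOC. Unbound PTCH1 holds the membrane protein SMO inactive, and once released SMO acts at the primary cilium on the GLI transcription factors, of which GLI2 is the main activator and GLI3 mostly a repressor in the spinal cord. In the neural tube the ligand SHH comes from the notochord and the floor plate, the ventral midline marked by the forkhead factor FOXA2. Ptch1, Gli1 and Hhip are transcribed in response to the pathway in many tissues, so their transcripts are widely read as its output.

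The cells were R1 mouse embryonic stem cells of the genotype FOXA2-Venus, named FOXA2-positive or FOXA2-negative in the library titles, from a study of floor plate formation in neural tube organoids. The cells of either name are called a fraction below. All groups had 18 h of retinoic acid (RA). In the BMP4 groups 6 h without treatment and 8 h of BMP4 followed, a bone morphogenetic protein that acts as a dorsal signal in the neural tube. The LDN groups had the same schedule with an agent named LDN, which the labels do not spell out. Only the 18 h are stated for RA, so treatment and collection time cannot be told apart in comparisons with RA. BMP4 FOXA2-positive and FOXA2-negative cells, LDN FOXA2-negative cells, and RA FOXA2-positive and FOXA2-negative cells had 3 libraries each. LDN FOXA2-positive cells had 2, numbered 2 and 3. Whether replicate libraries are separate cultures is not stated, and p-values therefore reflect spread among libraries that could be purely technical.

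Libraries held 8435845 to 10796136 counts in genes (median 9785138). Levels are CPM, which are counts divided by the size of the library after edgeR's TMM scaling. Foxa2 averaged 25.9 ± 2.80 CPM in BMP4 FOXA2-positive cells and 0.775 ± 0.860 CPM in BMP4 FOXA2-negative cells (SD, n = 3 each). In LDN it averaged 42.0 ± 3.17 CPM (n = 2) in FOXA2-positive cells, against 1.85 ± 1.61 CPM (n = 3) in FOXA2-negative cells. In RA it averaged 23.0 ± 6.82 CPM in FOXA2-positive libraries, against 0.311 ± 0.1003 CPM in FOXA2-negative cells (n = 3 each). Of the 8 pluripotency markers, the Tdgf1 transcript had no counts in LDN and RA FOXA2-positive cells and Nanog had none in LDN FOXA2-positive cells. Library 1 of either RA fraction lay far out on the second principal component, at 32.3 (FOXA2-positive) and 33.3 (FOXA2-negative) against -15.8 to 4.71 for the others, and had the highest shares of mitochondrial counts (7.43% and 6.94%, against 3.50% to 4.81%). Since RNA was taken from bulk cells, fewer cells expressing a gene and less RNA per cell cannot be told apart.

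Ptch1, Hhip and Smo were the 3 genes called between FOXA2-positive and FOXA2-negative cells when the 3 treatments were averaged, and their promoter windows are shown for that reason. Each window runs from 250 bases before to 50 after the RefSeq start in GRCm38.p6, printed 5′ to 3′ on the gene's strand. Ptch1's lies at chr13:63565686-63565985 (minus strand), Hhip's at chr8:80057959-80058258 (minus strand) and Smo's at chr6:29735247-29735546 (plus strand). The RefSeq start of Ptch1 lies inside the annotated gene, downstream of its outermost end. Capitals mark the palindrome GGCGCC, a motif bound by SMAD proteins, the effectors of BMP signals.
Ptch1: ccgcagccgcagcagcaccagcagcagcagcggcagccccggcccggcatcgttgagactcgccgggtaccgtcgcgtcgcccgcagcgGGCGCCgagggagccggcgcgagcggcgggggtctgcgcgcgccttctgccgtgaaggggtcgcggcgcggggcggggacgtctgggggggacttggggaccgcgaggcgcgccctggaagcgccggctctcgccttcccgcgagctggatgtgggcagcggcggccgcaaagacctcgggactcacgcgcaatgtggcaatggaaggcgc
Hhip: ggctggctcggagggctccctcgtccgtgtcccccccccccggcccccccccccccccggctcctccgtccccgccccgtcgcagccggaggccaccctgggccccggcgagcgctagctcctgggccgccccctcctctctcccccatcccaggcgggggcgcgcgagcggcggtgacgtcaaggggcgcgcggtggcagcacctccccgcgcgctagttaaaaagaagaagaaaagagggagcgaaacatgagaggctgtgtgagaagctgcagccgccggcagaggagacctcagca
Smo: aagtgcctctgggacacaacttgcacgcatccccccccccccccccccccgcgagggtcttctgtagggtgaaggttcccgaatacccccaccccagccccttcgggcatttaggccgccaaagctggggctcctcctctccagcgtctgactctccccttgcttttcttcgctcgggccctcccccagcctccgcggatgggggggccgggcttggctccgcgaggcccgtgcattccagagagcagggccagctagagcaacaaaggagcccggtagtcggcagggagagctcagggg
Of the 9 genes, 7 had an entry among the 32851 RefSeq promoters, and Gli1 and Boc had none. On both strands, the GLI consensus GACCACCCA was in 0 of the 7 windows and in 0.253% of all promoters. The FOXA motifs TGTTTAC and TATTTAC were also in 0 of the 7, against 3.65% and 3.04% of all. GGCGCC was in 2 of the 7, those of Ptch1 (161 bases before the start) and Gas1 (26 bases before it), against 11.9% of all promoters. The windows shown were rich in G and C, at 76.3% for Ptch1, 73.7% for Hhip and 67.7% for Smo, where the median promoter had 52.7%. Cdon's window, not shown, had 44.7%. It lies inside the annotated gene, downstream of its outermost end, as for Ptch1. Absence of these letters describes only this window and none of the genes' distant enhancers.

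Across the 17 libraries every gene was detected in every library. Per kb of merged exon, the mean level was 6.33 CPM for Gas1, 5.71 for Smo, 4.74 for Ptch1, 4.67 for Gli3, 3.46 for Cdon, 2.75 for Gli1, 2.42 for Boc, 1.80 for Gli2 and 0.834 for Hhip. All values below are CPM without the division by length and so compare libraries within a gene. The plot of levels by library shows each value.

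**Figure D1:**
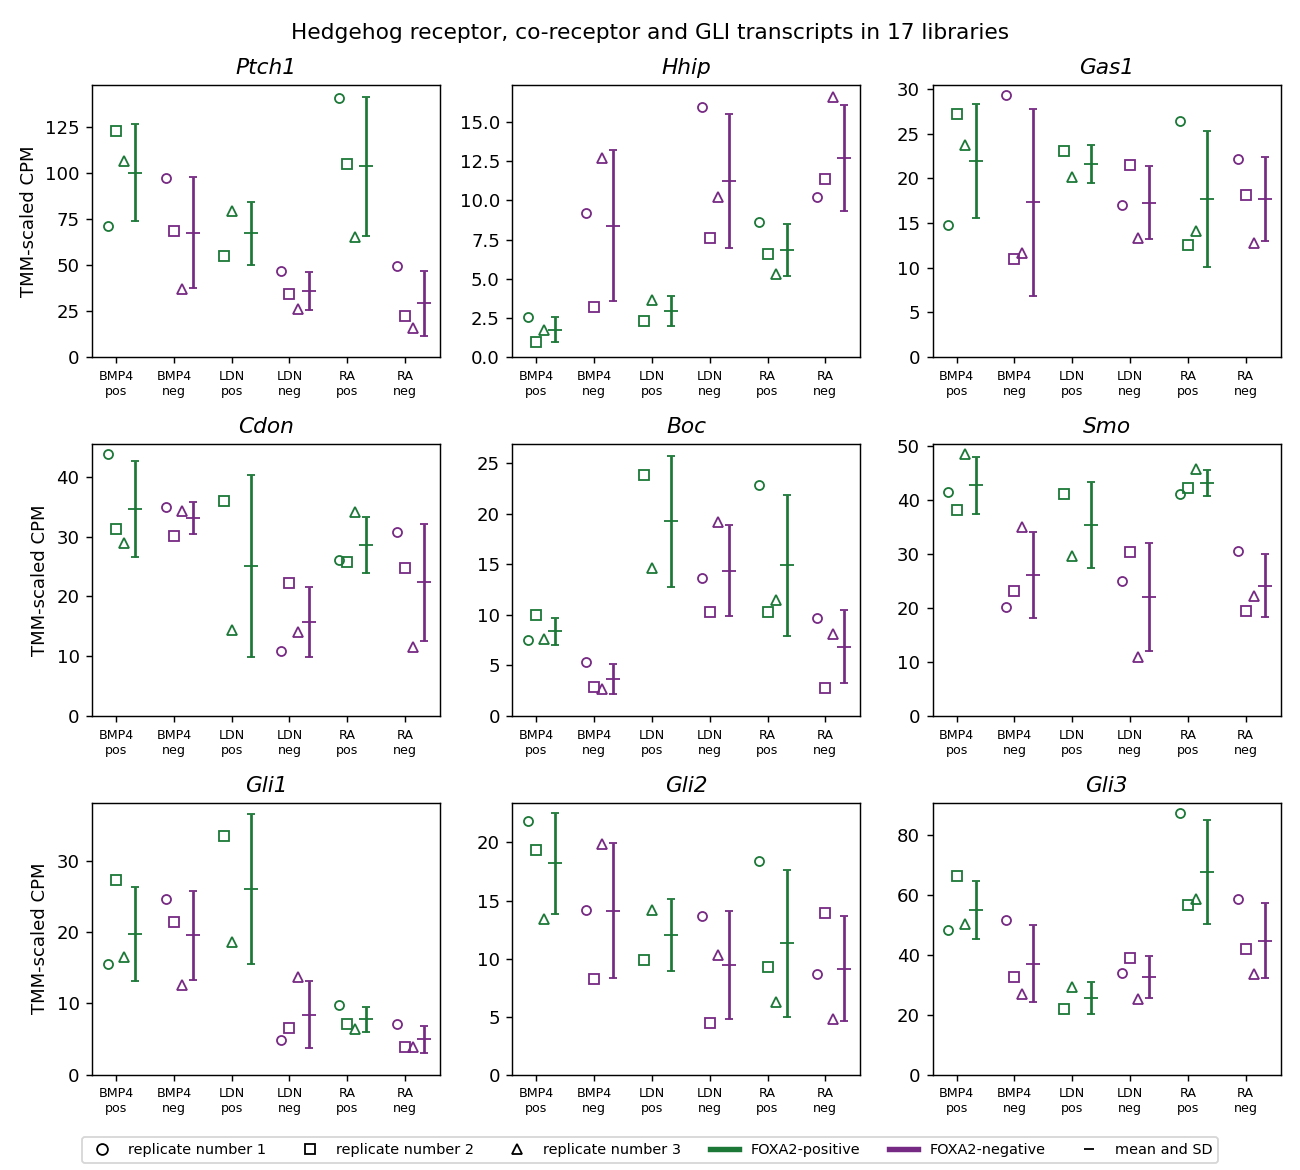
Levels of the 9 genes in each of the 17 libraries. The y axes are TMM-scaled CPM, points are libraries (shapes give the replicate number), bars are the mean and SD of the group, green is FOXA2-positive and purple FOXA2-negative. Hhip lies lower in the FOXA2-positive than in FOXA2-negative libraries of each treatment, and Gli1 is below 10 CPM in all 6 RA libraries.

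Ptch1 (ENSMUSG00000021466, chromosome 13, 63508328 to 63573598, minus strand, mm10) encodes the receptor that binds the ligand and silences SMO. In BMP4 it had 71.1, 123 and 106 CPM in FOXA2-positive libraries, against 97.4, 68.3 and 37.0 CPM in FOXA2-negative libraries. Levels in LDN were 55.1 and 79.3 CPM in FOXA2-positive and 46.5, 34.5 and 26.1 CPM in FOXA2-negative libraries. In RA it had 141, 105 and 65.3 CPM in FOXA2-positive and 49.2, 22.3 and 16.0 CPM in FOXA2-negative libraries. Every FOXA2-positive library was above every FOXA2-negative one in LDN and in RA, while in BMP4 the fractions overlapped. Averaged over treatments, Ptch1 was higher in FOXA2-positive cells by 1.10 ± 0.24 on the log2 scale (SE; edgeR quasi-likelihood adjusted p = 0.0093). Of the 9 genes 3 were called in this averaged comparison, 2 higher and 1 lower, against 7.62% of all genes tested (3.12% higher and 4.5% lower). Within RA the Ptch1 difference was 1.83 ± 0.42 (edgeR adjusted p = 0.0396), the only call among the 9 there, against 1.19% of all genes. Within LDN and BMP4 it was 0.91 ± 0.45 and 0.57 ± 0.40 (edgeR adjusted p = 0.462 and 0.670). The difference between the BMP4 and RA fold changes was -1.26 (95% interval -2.47 to -0.04) and did not pass the test (edgeR adjusted p = 1). Without LDN FOXA2-positive library 3 the averaged call was lost (1.00, edgeR adjusted p = 0.0517). The RA call was lost without RA FOXA2-positive library 1 (1.55, edgeR adjusted p = 0.13) or 2 (1.82, 0.111), without RA FOXA2-negative library 2 (1.66, 0.19) or 3 (1.54, 0.124), and in a fit of the RA libraries alone (1.82, 0.0823). It held without both RA libraries numbered 1 (2.15, edgeR adjusted p = 0.0077), and with the replicate number as a block it was 1.92 (0.0021).

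Hhip (ENSMUSG00000064325, chromosome 8, 79965851 to 80058006, minus strand) encodes a membrane protein that binds Hedgehog ligands and withholds them from PTCH1. It had 2.55, 0.943 and 1.75 CPM in BMP4 FOXA2-positive libraries, against 9.19, 3.23 and 12.7 CPM in BMP4 FOXA2-negative libraries. The LDN libraries held 2.27 and 3.61 CPM in FOXA2-positive and 15.9, 7.58 and 10.2 CPM in FOXA2-negative libraries. Levels in RA were 8.63, 6.57 and 5.32 CPM in FOXA2-positive and 10.2, 11.4 and 16.6 CPM in FOXA2-negative libraries. In each treatment all FOXA2-positive libraries were below all FOXA2-negative ones. Such a lower separation was found for 7.31% of all genes in BMP4, 14.7% in LDN and 7.99% in RA. Averaged over treatments Hhip fell by 1.69 ± 0.35 on the log2 scale (SE; edgeR adjusted p = 0.00282), opposite in direction to Ptch1. This call held without each of the 17 libraries in turn. Within treatments the log2 fold changes were -2.25 ± 0.60 in BMP4, -1.93 ± 0.68 in LDN and -0.90 ± 0.56 in RA, none of them called (edgeR adjusted p = 0.0728, 0.225 and 0.605). The BMP4 difference was called without BMP4 FOXA2-negative library 2 (-2.64, edgeR adjusted p = 0.0457). The BMP4 and LDN FOXA2-positive groups rest on 54 counts each, so single libraries there are imprecise. RA FOXA2-positive libraries (5.32 to 8.63 CPM) were all above those of BMP4 FOXA2-positive (0.943 to 2.55 CPM) and LDN FOXA2-positive cells (2.27 and 3.61 CPM). For BMP4 against RA the log2 fold change was -1.96 ± 0.59 and was not called (edgeR adjusted p = 0.600).

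The 3 co-receptors did not share a pattern. Boc (ENSMUSG00000022687, chromosome 16, 44485049 to 44558897, minus strand) encodes an immunoglobulin-superfamily protein that presents the ligand to PTCH1. It had 7.56, 9.95 and 7.56 CPM in BMP4 FOXA2-positive libraries and 5.35, 2.90 and 2.64 CPM in BMP4 FOXA2-negative libraries. In LDN it had 23.9 and 14.7 CPM in FOXA2-positive and 13.6, 10.3 and 19.2 CPM in FOXA2-negative libraries. The RA libraries held 22.9, 10.3 and 11.5 CPM in FOXA2-positive and 9.72, 2.74 and 8.12 CPM in FOXA2-negative libraries. Within either fraction all BMP4 libraries were below all LDN libraries. Averaged over fractions Boc fell by 1.60 ± 0.37 on the log2 scale in BMP4 against LDN (SE; edgeR adjusted p = 0.0311), the only call among the 9 in that comparison, where 0.786% of all genes were called. The call rests on most libraries together. It was kept without BMP4 FOXA2-negative library 1 (edgeR adjusted p = 0.025) or LDN FOXA2-negative library 2 (0.0347), and lost without any of the other 9 libraries, at -1.74 to -1.40 and adjusted p of 0.0522 to 0.193. Between fractions the averaged Boc log2 fold change was 0.91 ± 0.29, just outside the threshold (edgeR adjusted p = 0.0556). DESeq2 placed it inside (adjusted p = 0.0289), as did edgeR without BMP4 FOXA2-negative library 1 (1.05, 0.0341), without RA FOXA2-negative library 1 (1.03, 0.0371) or with no filter on low counts (0.91, 0.0474).

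Cdon (ENSMUSG00000038119, chromosome 9, 35421128 to 35507652, plus strand) encodes a relative of BOC with the same role. It had 43.8, 31.3 and 28.9 CPM in BMP4 FOXA2-positive and 35.0, 30.1 and 34.2 CPM in BMP4 FOXA2-negative libraries. Levels in LDN were 35.9 and 14.3 CPM in FOXA2-positive and 10.8, 22.2 and 14.02 CPM in FOXA2-negative libraries. In RA it had 26.1, 25.7 and 34.1 CPM in FOXA2-positive and 30.7, 24.8 and 11.5 CPM in FOXA2-negative libraries. The fractions overlapped in every treatment, and the averaged fold change was 0.37 (95% interval -0.07 to 0.81). The clearest gap was in FOXA2-negative cells, where the BMP4 libraries were all above the LDN libraries, a log2 fold change of 1.08 ± 0.36 that was not called (edgeR adjusted p = 0.460). Gas1 (ENSMUSG00000052957, chromosome 13, 60174405 to 60177365, minus strand) encodes a lipid-anchored co-receptor. It ranged from 14.8 to 27.2 CPM in BMP4 FOXA2-positive and 10.97 to 29.3 CPM in BMP4 FOXA2-negative libraries, from 20.1 to 23.1 and 13.3 to 21.5 CPM in the LDN fractions, and from 12.6 to 26.4 and 12.7 to 22.2 CPM in the RA fractions. Its groups overlapped in all 9 pairwise comparisons, and its mean lay between 17.3 and 21.9 CPM in all 6 groups. The averaged Gas1 fold change between fractions was 0.22 (95% interval -0.26 to 0.71), and between BMP4 and LDN 0.01 (95% interval -0.60 to 0.62).

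Smo (ENSMUSG00000001761, chromosome 6, 29735503 to 29761365, plus strand) encodes the signal transducer that PTCH1 restrains. It had 41.5, 38.2 and 48.6 CPM in BMP4 FOXA2-positive libraries, against 20.1, 23.1 and 35.1 CPM in BMP4 FOXA2-negative libraries. The LDN libraries held 41.1 and 29.7 CPM in FOXA2-positive and 24.9, 30.3 and 10.98 CPM in FOXA2-negative libraries. Levels in RA were 41.2, 42.3 and 45.8 CPM in FOXA2-positive and 30.6, 19.5 and 22.3 CPM in FOXA2-negative libraries. The fractions were separate in BMP4 and RA, and in LDN 1 FOXA2-negative library (30.3 CPM) was above the lower FOXA2-positive one. The log2 fold change was 0.71 ± 0.31 in BMP4, 0.68 ± 0.34 in LDN and 0.84 ± 0.31 in RA, none called alone (edgeR adjusted p = 0.404, 0.459 and 0.273). Averaged, Smo was higher in FOXA2-positive cells by 0.74 ± 0.18 (SE; edgeR adjusted p = 0.0120). The call was lost without LDN FOXA2-positive library 2 (0.66, edgeR adjusted p = 0.0579). No comparison between treatments called it, and the 6 fold changes within a fraction lay between -0.28 and 0.27.

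Gli1 (ENSMUSG00000025407, chromosome 10, 127329882 to 127341974, minus strand) encodes the GLI factor whose own transcription depends most on Hedgehog input. It had 15.5, 27.3 and 16.5 CPM in BMP4 FOXA2-positive and 24.7, 21.4 and 12.5 CPM in BMP4 FOXA2-negative libraries. In LDN it had 33.4 and 18.5 CPM in FOXA2-positive and 4.93, 6.61 and 13.7 CPM in FOXA2-negative libraries. The RA libraries held 9.74, 7.13 and 6.44 CPM in FOXA2-positive and 7.11, 3.92 and 3.84 CPM in FOXA2-negative libraries. The high groups were both BMP4 fractions and LDN FOXA2-positive cells, which overlap each other, and every library of these 8 was above every RA library. LDN FOXA2-negative cells lay lower and overlapped the RA fractions. In LDN the fractions did not overlap (1.62 ± 0.47, edgeR adjusted p = 0.118), while in BMP4 their means were 19.8 ± 6.57 and 19.5 ± 6.27 CPM (SD, n = 3 each; log2 fold change 0.02, 95% interval -0.86 to 0.90). The difference between the BMP4 and LDN fold changes was -1.61 (95% interval -2.92 to -0.29), which did not pass the test over all genes (edgeR adjusted p = 0.779). Averaged over treatments the Gli1 log2 fold change between fractions was 0.76 ± 0.26, which was not called (edgeR adjusted p = 0.0749). It was called without LDN FOXA2-negative library 3 (0.95, edgeR adjusted p = 0.0261) or RA FOXA2-negative library 1 (0.88, 0.041). Exons of Gli1 share 62 bases with Arhgap9 on the other strand, which had 534 counts in all, and 265 bases with the antisense gene Gm47200, whose counts were not analysed here. Gas1 exons likewise share 589 bases with Gm48488, also not analysed here, Gli3 exons 188 bases with Gm6556 (57 counts) and Hhip exons 175 bases with Gm27820 (0 counts). The strand setting is not given in the sources used here, so reads of such partners cannot be told apart.

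Gli2 (ENSMUSG00000048402, chromosome 1, 118834132 to 119053619, minus strand), the main activator, had 13.4 to 21.8 CPM in BMP4 FOXA2-positive and 8.28 to 19.9 CPM in BMP4 FOXA2-negative libraries. It had 9.85 and 14.2 CPM in LDN FOXA2-positive and 4.47 to 13.6 CPM in LDN FOXA2-negative libraries. Levels in RA were 6.24 to 18.4 CPM in FOXA2-positive and 4.83 to 13.9 CPM in FOXA2-negative libraries. Neighbouring groups in the order of means overlapped, the averaged fold change between fractions was 0.34 (95% interval -0.27 to 0.94), and the adjusted p of Gli2 was 0.601 or more in all 14 comparisons (edgeR). Gli3 (ENSMUSG00000021318, chromosome 13, 15463235 to 15730026, plus strand) encodes the GLI protein that is cleaved to a repressor when no ligand is bound. It had 48.3, 66.1 and 50.3 CPM in BMP4 FOXA2-positive and 51.7, 32.5 and 27.0 CPM in BMP4 FOXA2-negative libraries. In LDN it had 21.9 and 29.4 CPM in FOXA2-positive and 33.7, 39.1 and 25.1 CPM in FOXA2-negative libraries. The RA libraries held 87.4, 56.5 and 58.6 CPM in FOXA2-positive and 58.4, 41.9 and 33.7 CPM in FOXA2-negative libraries. LDN FOXA2-positive cells held the lowest Gli3 mean of the 6 groups, and both of their libraries were below all BMP4 and RA FOXA2-positive libraries. The log2 fold change of LDN against RA in FOXA2-positive cells was -1.40 ± 0.32, just outside the threshold (edgeR adjusted p = 0.0639), and DESeq2 placed it inside (-1.38, adjusted p = 0.00962). The Gli3 log2 fold change between fractions was 0.57 in BMP4, -0.35 in LDN and 0.59 in RA, with none called. The test of the difference between LDN and RA gave -0.95 (95% interval -1.80 to -0.09; edgeR adjusted p = 0.860), and between BMP4 and LDN 0.92 (95% interval 0.07 to 1.77; edgeR adjusted p = 0.802).

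Set side by side, 8 of the 9 genes had positive fold changes between fractions averaged over treatments and Hhip was the exception. The median log2 fold change of the 9 was 0.37, beside -0.03 over all genes tested. In RA, Ptch1, Smo and Boc were separate and higher, against 7.25% of all genes. In BMP4, Smo and Boc were, against 7.51%. In LDN, Ptch1 and Gli1 were, against 13.1% (the lower background shares stand with Hhip above). No member was called within BMP4 or within LDN, where 0.921% and 0.994% of all genes were. At an unadjusted p under 0.05 there were 4 members in BMP4 (Boc, Gli3, Hhip and Smo) and 2 in LDN (Gli1 and Hhip), beside 10.8% and 11.2% of all genes at that threshold, and DESeq2 called Hhip in BMP4 and Gli1 in LDN. With the replicate number as a block, 362 of all genes were called in RA, against 212 without it. The 3 tests of whether the fraction difference changes with treatment called none of the 9 in edgeR or in DESeq2, where 0.00561% (BMP4 minus RA), 0.00561% (LDN minus RA) and 0.0337% (BMP4 minus LDN) of all genes were called by edgeR. At an unadjusted p under 0.05 they held 1, 1 and 2 members, beside 4.17%, 5.81% and 6.18% of all genes.

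**Figure D2:**
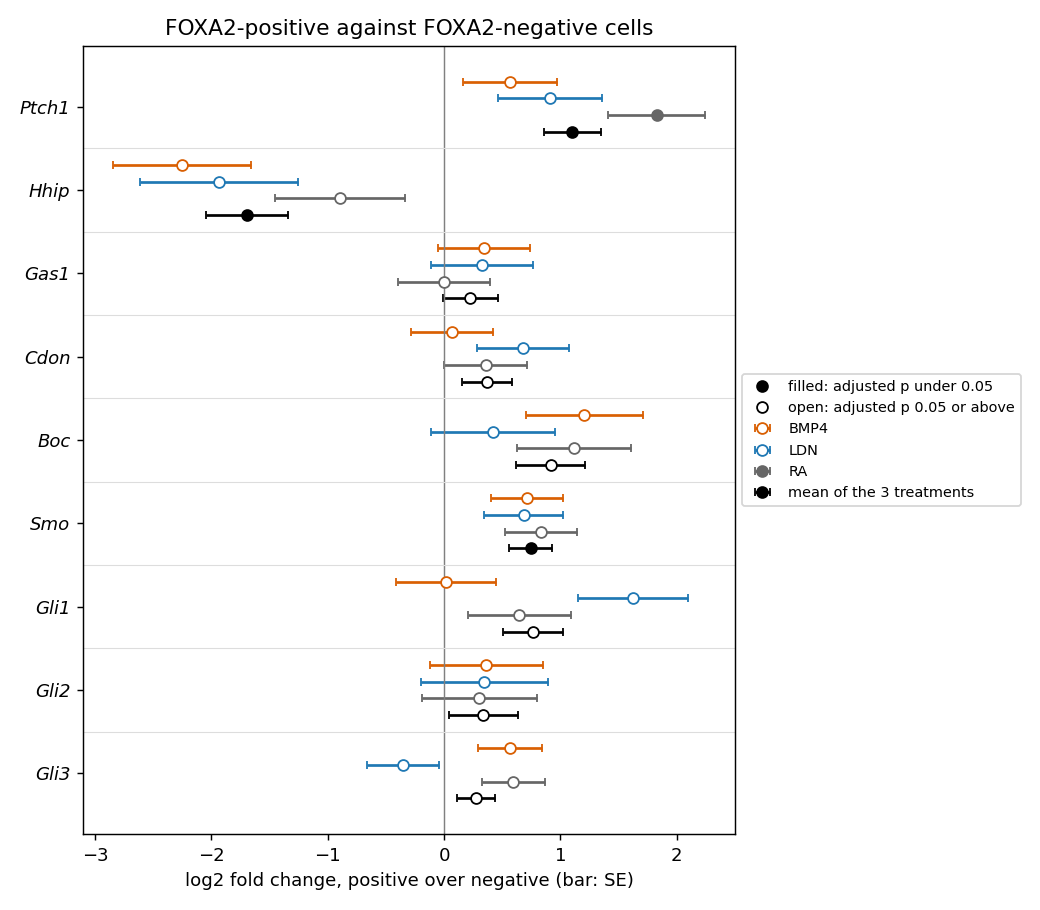
Log2 fold change of FOXA2-positive over FOXA2-negative cells for each gene, with bars of 1 SE. BMP4 is orange, LDN blue, RA grey and the mean of the 3 treatments black, and filled points have an adjusted p under 0.05. Filled are Ptch1 (RA and the mean), Smo (the mean) and Hhip (the mean), with Hhip to the left of 0 throughout.

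The fold changes of Smo and Hhip stand on chromosomes whose genes also differed between the fractions. Among genes with 20 CPM or more, the averaged difference had a median of 0.29 on chromosome 6 (335 genes), which carries Smo, and -0.29 on chromosome 8 (407 genes), which carries Hhip. The medians of the 18 remaining chromosomes ran from -0.02 to 0.05. Smo stood 0.45 above the median of its chromosome, with 16 of the 335 genes above it. Hhip stood 1.40 below the median of its own, with 2 of the 407 genes below it. At a mean of 7.57 CPM Hhip itself is under the 20 CPM limit. It was not ranked among genes of its own level. When each library was scaled within chromosomes, an alternative chosen after seeing the data, the averaged Smo difference was 0.47 and its call was lost (edgeR adjusted p = 0.133). In the same fit Hhip kept its call (-1.42, edgeR adjusted p = 0.0134), as did Ptch1 on chromosome 13 (1.09, 0.00458). What the shift of whole chromosomes contributes was not tested beyond this scaling.

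**Figure D3:**
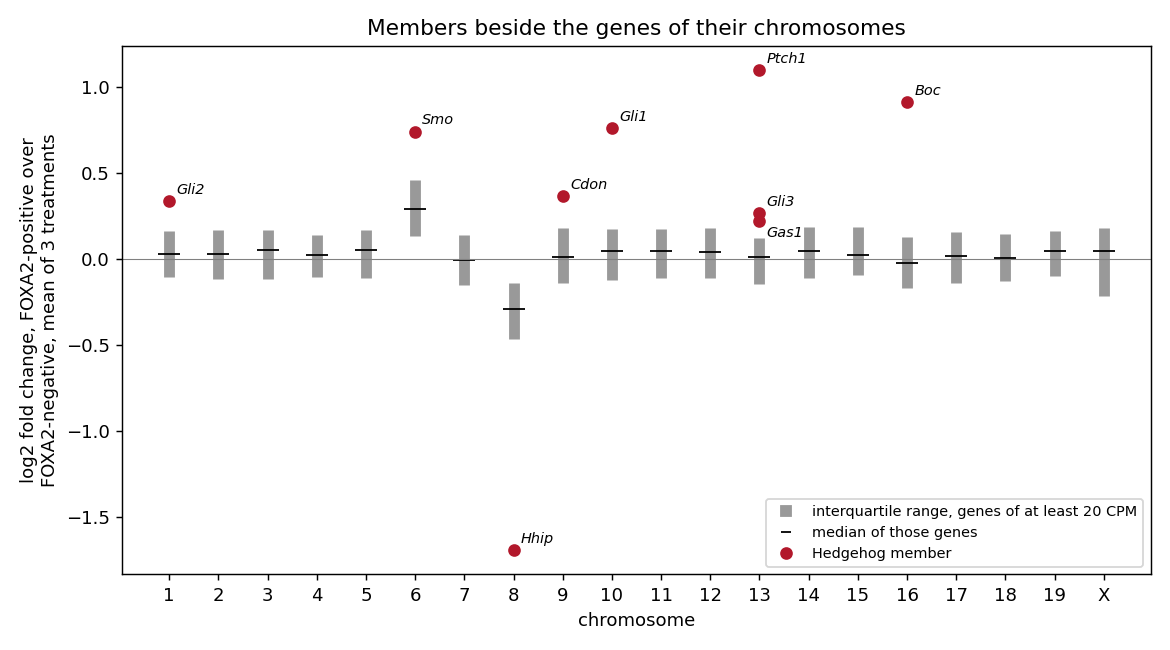
Averaged log2 fold change of FOXA2-positive over FOXA2-negative cells, for the 9 genes (red points) beside the genes of at least 20 CPM on each chromosome (black ticks: medians; grey bars: interquartile ranges). The median is 0.29 on chromosome 6, where Smo lies, and -0.29 on chromosome 8, where Hhip lies.

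Markers of other cell states moved with the fractions. Averaged over treatments, 4.5% of all genes were called lower in FOXA2-positive cells and 3.12% higher. Of 8 pluripotency markers 7 were lower in that comparison. Their summed level was 322 to 429 CPM in BMP4 FOXA2-positive and 582 to 899 CPM in BMP4 FOXA2-negative libraries, 345 to 370 and 705 to 973 CPM in the LDN fractions, and 301 to 416 and 780 to 1108 CPM in the RA fractions. Of 8 surface ectoderm markers 5 were lower, and their sum was 560 to 689 CPM in BMP4 FOXA2-positive and 640 to 685 CPM in BMP4 FOXA2-negative libraries, 307 to 356 and 608 to 765 CPM in LDN, and 246 to 305 and 491 to 600 CPM in RA. Of 8 neural progenitor markers 2 were higher (Cdh2 and Ncam1), and their sum was 441 to 622 CPM in BMP4 FOXA2-positive and 360 to 464 CPM in BMP4 FOXA2-negative libraries, 951 to 1063 and 609 to 674 CPM in LDN, and 588 to 618 and 387 to 458 CPM in RA. Of 7 endoderm markers tested 3 were higher, Sox17 and Foxa1 among them, and their sum was 53.0 to 111 CPM in BMP4 FOXA2-positive and 15.3 to 34.9 CPM in BMP4 FOXA2-negative libraries, 80.9 to 93.4 and 10.1 to 36.5 CPM in LDN, and 64.7 to 72.4 and 8.89 to 22.4 CPM in RA. The endoderm gene Cer1 had no counts in any group. None of 8 mesoderm markers was called by edgeR or DESeq2, and 1, Meox1, had an unadjusted p under 0.05. Within treatments, surface ectoderm markers called lower numbered 1 in BMP4, 5 in LDN and 4 in RA. The shares of all genes called there were 0.921%, 0.994% and 1.19%. The difference between the BMP4 and LDN fold changes was called for Krt18 (1.425, edgeR adjusted p = 0.0324) and Tfap2c (2.28, 0.0130). The part of these cell states in the Ptch1, Smo and Hhip differences was not tested.

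BMP4 against LDN compares a BMP signal with the agent called LDN at matched times. Boc, described above, was the only call. The averaged log2 fold changes of the others were 0.75 ± 0.31 for Ptch1, -0.58 ± 0.43 for Hhip, 0.77 ± 0.27 for Cdon, 0.26 ± 0.23 for Smo, 0.41 ± 0.32 for Gli1, 0.59 ± 0.37 for Gli2 and 0.64 ± 0.21 for Gli3. None of these passed (edgeR adjusted p of 0.233 or more). In FOXA2-positive cells Gli3 was separate and higher in BMP4 and Boc separate and lower, where 11.6% and 10.8% of all genes were. In FOXA2-negative cells Cdon was separate and higher and Boc separate and lower, where 5.32% and 5.93% were. Within a fraction no member was called by edgeR, beside 0.32% of all genes in FOXA2-positive and 0.196% in FOXA2-negative cells. At an unadjusted p under 0.05 there were 2 in FOXA2-positive cells (Boc and Gli3) and 4 in FOXA2-negative cells (Boc, Cdon, Gli1 and Ptch1), beside 7.37% and 7.06% of all genes, and DESeq2 called Boc in FOXA2-negative cells. Beside Boc, 5 of 8 neural progenitor markers were also lower in BMP4 averaged over fractions (Sox1, Sox2, Sox3, Pax6 and Ncam1), while 3 of 8 dorsal neural tube genes tested (Msx1, Msx2 and Pax3) were higher. Of the surface ectoderm markers 4 were higher and 1, Cdh1, lower. The part of cell composition in the Boc difference was not tested.

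**Figure D4:**
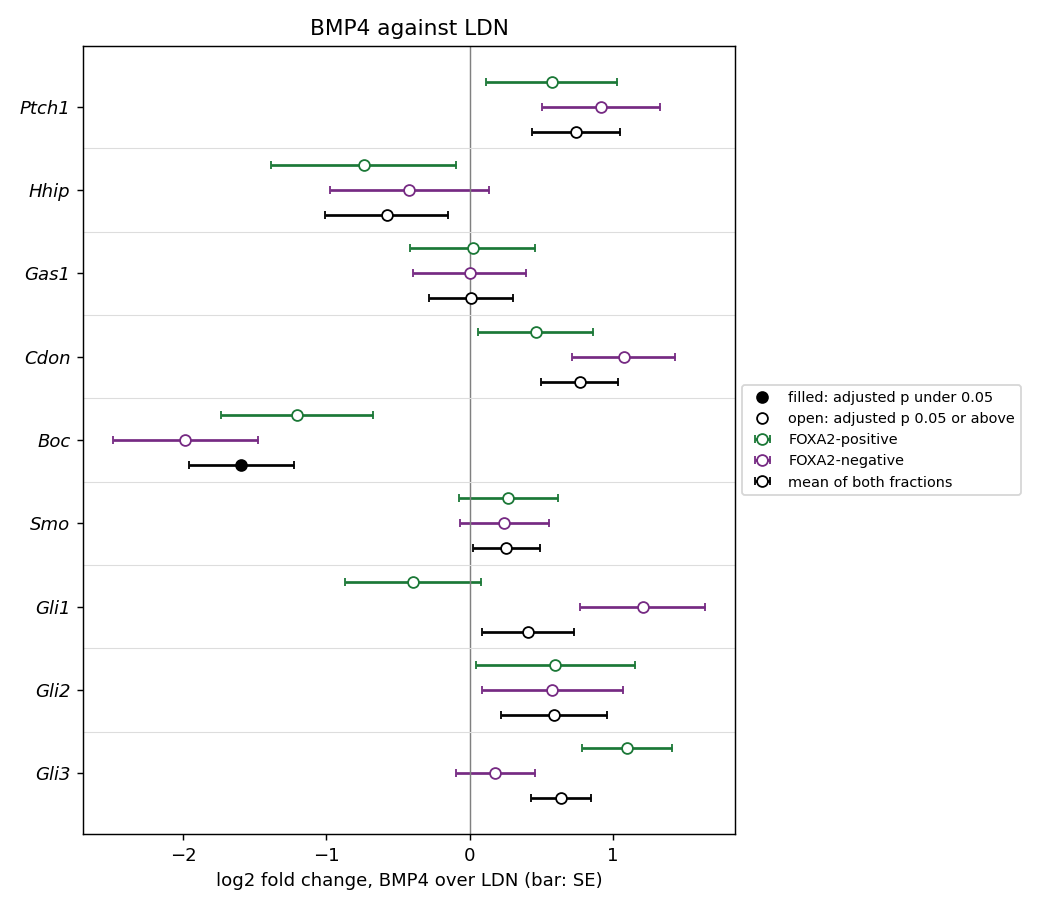
Log2 fold change of BMP4 over LDN for each gene, with bars of 1 SE, in FOXA2-positive (green) and FOXA2-negative cells (purple) and for the mean of both fractions (black). The filled point, Boc in the mean of both fractions at -1.60, has an adjusted p under 0.05.

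Against RA the most separated gene was Gli1. It was separate and higher in BMP4 in both fractions (1.35 ± 0.44 in FOXA2-positive and 1.98 ± 0.45 in FOXA2-negative cells) and in LDN FOXA2-positive cells (1.74 ± 0.48), and edgeR called none of these (adjusted p = 0.685, 0.114 and 0.153). DESeq2 called it in BMP4 FOXA2-negative (adjusted p = 0.00879) and LDN FOXA2-positive cells (0.0426). Of the other genes, Boc and Hhip were separate and lower in BMP4 FOXA2-positive cells. In LDN, Smo, Gli3 and Hhip were separate and lower in FOXA2-positive cells, and Boc was separate and higher in FOXA2-negative cells. The share of all genes that was separate and higher was 5.69% for BMP4 FOXA2-positive, 4.75% for BMP4 FOXA2-negative, 11.7% for LDN FOXA2-positive and 6.01% for LDN FOXA2-negative cells. The share separate and lower was 6.14% in BMP4 FOXA2-positive, 5.71% in BMP4 FOXA2-negative, 14.2% in LDN FOXA2-positive and 6.27% in LDN FOXA2-negative cells. No member was called by edgeR in any of these comparisons, beside 0.0786% of all genes in either BMP4 fraction, 0.208% in LDN FOXA2-positive and 0.0393% in LDN FOXA2-negative cells. At an unadjusted p under 0.05 there were 2, 2, 2 and 1 members in BMP4 FOXA2-positive, BMP4 FOXA2-negative, LDN FOXA2-positive and LDN FOXA2-negative cells, beside 5.6%, 7.36%, 9.35% and 7.5% of all genes. These comparisons share their RA libraries.

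The rest of the pathway was read from fixed lists. Of the ligand genes, Shh and Dhh were too low to test. Shh had no counts in 5 groups, which allows at most 0.0985 to 0.105 CPM from counting error alone (3 counts over a group), and 11 counts in LDN FOXA2-positive cells. Dhh had 14 counts, all in RA FOXA2-negative cells. Ihh averaged 2.08 ± 1.54 CPM in BMP4 FOXA2-positive and 1.58 ± 2.11 CPM in BMP4 FOXA2-negative cells (SD, n = 3 each) and was under 1 CPM elsewhere. Of the 6 ligand and release genes tested, none was called between fractions averaged over treatments, none had an unadjusted p under 0.05 and DESeq2 called none.

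Among 6 other Hedgehog-binding surface proteins the glypicans Gpc3 and Gpc6 were higher in FOXA2-positive cells. GPC3 is a heparan sulphate proteoglycan that competes with PTCH1 for ligand, and Gpc3 had 356, 419 and 285 CPM in BMP4 FOXA2-positive and 119, 138 and 156 CPM in BMP4 FOXA2-negative libraries. Levels in LDN were 284 and 417 CPM in FOXA2-positive and 71.2, 65.7 and 54.6 CPM in FOXA2-negative libraries. In RA it had 127, 249 and 165 CPM in FOXA2-positive and 46.6, 91.7 and 77.0 CPM in FOXA2-negative libraries. Gpc3 was separate in each treatment and was called in each, by 1.36 in BMP4, 2.46 in LDN and 1.33 in RA (edgeR adjusted p = 0.00385, 1.14e-05 and 0.00341). Gpc6 was higher by 1.32 averaged over treatments (edgeR adjusted p = 0.00620) and by 1.79 in BMP4 against LDN averaged over fractions (0.0229).

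Of 25 intracellular regulators 1 was called between fractions averaged over treatments, no larger a share than the 7.62% of all genes. It was Evc, which encodes a cilium membrane protein that works downstream of SMO, at 20.7, 12.8 and 15.2 CPM in BMP4 FOXA2-positive and 2.21, 10.2 and 1.70 CPM in BMP4 FOXA2-negative libraries. The other Evc levels were 29.2 and 14.7 CPM in LDN FOXA2-positive, against 9.12, 5.83 and 11.9 CPM in LDN FOXA2-negative libraries, and 7.63, 15.7 and 18.9 CPM in RA FOXA2-positive, against 11.3, 11.8 and 9.77 CPM in RA FOXA2-negative libraries. The fractions were separate in BMP4 and LDN and overlapped in RA. The averaged Evc difference was 1.15 (edgeR adjusted p = 0.0241). The cytoplasmic GLI inhibitor Sufu and the cilium-tip kinesin Kif7 differed by 0.26 and 0.23 (95% intervals -0.29 to 0.81 and -0.31 to 0.77). None of 23 primary cilium genes was called by edgeR or DESeq2, 2 had an unadjusted p under 0.05 (20.2% of all genes did), and their median log2 fold change was -0.03, as over all genes.

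Of 11 GLI target genes tested 4 were higher in FOXA2-positive cells averaged over treatments, and 1 of them, Foxa2, defines the fractions. The other 3 were the cyclin genes Ccnd2 (1.16, edgeR adjusted p = 1.19e-08) and Ccnd1 (0.51, 0.000797) and the growth regulator Mycn (0.75, 0.00912). Ccnd2 had 1102, 1010 and 932 CPM in BMP4 FOXA2-positive and 559, 487 and 525 CPM in BMP4 FOXA2-negative libraries. The LDN libraries held 636 and 660 CPM in FOXA2-positive and 260, 452 and 252 CPM in FOXA2-negative libraries. Levels in RA were 854, 864 and 749 CPM in FOXA2-positive and 302, 286 and 273 CPM in FOXA2-negative libraries. Like Ptch1, Ccnd2 was separate between fractions in LDN and RA, and unlike Ptch1 also in BMP4. It lies on chromosome 6, whose median of 0.29 is given above. It was also higher in BMP4 against LDN averaged over fractions (0.68, edgeR adjusted p = 0.00331). The ventral progenitor genes Nkx2-2 and Olig2 were too low to test, with at most 9 and 2 counts in a group, and Nkx6-1 was not called (edgeR adjusted p = 0.0864). Of 7 floor plate genes tested, Foxa2 and Slit1 were higher in FOXA2-positive cells averaged over treatments and Lmx1a was lower. Within BMP4 all 7 had positive fold changes, Lmx1a included. Of 8 dorsal neural tube genes tested, Pax3 (1.28, edgeR adjusted p = 0.00268) and Msx1 (0.82, 0.00993) were also higher. Msx2 was lower (-3.33, edgeR adjusted p = 7.76e-06). Over all genes 7.62% were called in that comparison.

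The genes whose levels ran most alike with each member were found over the 17 libraries among 9965 genes of at least 5 CPM, by Pearson's r of log2 CPM. For Ptch1 they were Fzd4, Fndc3c1 and Ssbp3 (r = 0.891, 0.867 and 0.859), for Hhip Mpped2, Ppl and Ascl2 (0.881, 0.873 and 0.829), and for Smo Pla2g7, Tex261 and Derl1 (0.915, 0.893 and 0.872). For Boc they were Ptn, Sox1 and Rfx4 (r = 0.856, 0.854 and 0.852), for Cdon Wfikkn1 and Cxxc5 among others (0.823 and 0.784), and for Gas1 Prr36, Atg12 and Lrrcc1 (0.787, 0.778 and 0.765). For Gli1 they were D6Wsu163e, Rab10 and Zdhhc15 (r = 0.767, 0.757 and 0.747), for Gli2 Gid4, Spata5 and Brat1 (0.783, 0.774 and 0.763), and for Gli3 Tanc2, Peg10 and Acsl3 (0.853, 0.851 and 0.846). No member was among the genes nearest to another member. The 17 points share groups, libraries and depth, and these values only describe likeness.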

How the data were processed

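The 17 libraries were made by SMART-Seq v2, according to the labels. The authors deposited 1 table of raw, unnormalised counts per library, with 49671 Ensembl genes and 5 summary lines, and its name records removal of duplicates by molecular identifier. Per the submitters' processing notes, the build was mm10 and the tools were HTSeq 0.11.2, UMI-tools 1.0.0, DESeq2 1.26.0 and cutadapt 1.18. No aligner and no strand setting is given in the sources used here, so reads of overlapping antisense genes cannot be told apart. Summary lines name no gene, held 49.3% to 54.4% of tallied reads and were left out. Symbols, coordinates and exon lengths came from GENCODE M21 and promoter sequences from RefSeq on GRCm38.p6, the mm10 assembly.

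Groups were taken from the titles. The main analysis used edgeR 4.0.16 under R 4.3.3 (filterByExpr with a minimum count of 10 and total of 15, TMM, robust quasi-likelihood fit of 6 groups, 11 residual degrees of freedom, common biological coefficient of variation 0.632). The fit gave 9 pairwise comparisons, 2 averages and 3 interactions. P-values were adjusted by Benjamini-Hochberg over 17813 genes, with a threshold of 0.05, and every adjusted p not ascribed to DESeq2 is edgeR's. The SE was taken as the absolute log2 fold change over the root of F, and intervals are 95%. A gene is called separate where no library of one group overlaps the other. Alternatives were DESeq2 1.42.0, RLE scaling, no filter, a fit of only the compared groups, a block for the replicate number, each library left out, both RA libraries numbered 1 left out and, added after seeing the data, scaling within chromosomes. The fit was also run on counts simulated from its own dispersions, without pairing of libraries or shifts of whole chromosomes. The outcome is not reported here, and nothing is drawn from it.

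The members, the lists and the comparisons were chosen with earlier results of these data known. The text names all 9 members, the 3 genes most like each, genes of the lists that were called, and Shh, Ihh, Dhh, Sufu, Kif7, Nkx2-2, Nkx6-1, Olig2 and Foxa2 whatever their value. Some genes that meet this rule are not reported here. In RA, libraries of the same number in both fractions deviated together from their group means (correlations of 0.587, 0.238 and 0.277 over 6669 genes), each above the limit of 0.1, so the numbers were taken to pair them, from the data and not from the labels. RA libraries of different numbers also exceeded it (FOXA2-positive 2 with FOXA2-negative 3 at 0.243, and 3 with 2 at 0.168). Deviations from a group mean cancel out within the group, and library 1 lay far out in both RA fractions. Libraries 2 and 3 therefore tend to deviate together whatever their numbers. For them these values cannot decide whether the numbers mark pairs. No libraries of a group matched within sampling noise.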

Additional observations from a re-analysis of the deposited data

How the results depend on the processing

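The Hhip call between fractions averaged over treatments held under every alternative run, and the direction of all 5 called results did too. Of the 126 member results, 37 changed sign in some setting, none above 0.68 in size on the log2 scale. DESeq2 called 1 member (Hhip, -2.27) in BMP4, 1 in LDN (Gli1, 1.64), 1 in BMP4 against RA in FOXA2-negative cells (Gli1), 2 in LDN against RA in FOXA2-positive cells (Gli3 and Gli1) and 1 in BMP4 against LDN in FOXA2-negative cells (Boc), where edgeR called 0. Without the filter on low counts edgeR called 1 (Ptch1) in LDN, 2 (Ptch1 and Gli1) in BMP4 against RA in FOXA2-negative cells, 2 (Gli3 and Gli1) in LDN against RA in FOXA2-positive cells, 2 (Ptch1 and Boc) in BMP4 against LDN in FOXA2-negative cells, 1 (Gli3) in FOXA2-positive cells and 2 (Ptch1 and Boc) averaged. With the compared groups alone, 0 were called in RA. The cause of these shifts was not tested. With 1 library left out, the members called numbered 0 to 1 in RA, 0 to 1 in BMP4, 2 to 5 averaged over treatments (5 without RA FOXA2-negative library 1) and 0 to 1 in BMP4 against LDN averaged over fractions. Where LDN FOXA2-positive cells keep 1 library, it is assumed to vary like the other groups. The share of all genes called is not given here for most of these fits. The member counts with a library left out are therefore not set against one.

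Over all genes, the calls between fractions were 212 in RA (DESeq2 486, no filter 466, compared groups alone 127, without both RA libraries numbered 1 109), 164 in BMP4 (DESeq2 476, no filter 411, replicate block 282) and 177 in LDN (DESeq2 545, no filter 460). Against RA they were 14 in BMP4 FOXA2-positive (55, 100 and, with the compared groups alone, 25), 14 in BMP4 FOXA2-negative (74, 94 and 3), 37 in LDN FOXA2-positive (230, 294 and 9) and 7 in LDN FOXA2-negative cells (45, 83 and 4). BMP4 against LDN gave 57 in FOXA2-positive (189, 196 and 95), 35 in FOXA2-negative cells (137 and 141) and 140 averaged (317 and 318). The averaged fraction comparison gave 1357, and 881 without LDN FOXA2-positive library 3. The interactions gave 1 for BMP4 minus RA (16 and 31), 1 for LDN minus RA (3 and 31) and 6 for BMP4 minus LDN (38 and 54).

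With the replicate number as a block, the pairing taken for RA left Ptch1 called there (1 member), and the block changed no other member call. Outside RA the same-numbered fractions correlated at 0.051 to 0.079, under the limit of 0.1. Differently numbered ones correlated lower, at -0.061 to -0.011 in BMP4 and -0.062 to 0.005 in LDN. Such lower values largely follow from deviations that cancel out within a group, so they cannot decide on pairing. Whether the numbers pair libraries there was not tested further. Depth limits Hhip most, at 54 counts in each of 2 groups.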
